A study of Homo sapiens with 6 samples.

Results

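Interferon-stimulated genes are genes whose transcription rises when a cell receives an interferon, and 42 of them were followed here in HCCC9810, an established human cholangiocarcinoma (CCA) cell line, which comes from a cancer of the bile ducts. They were taken by symbol from the table of read counts deposited for this experiment, and all 42 were among its 19470 genes. The cells were wild type and had received 20 μM isolinderalactone (ILL), a sesquiterpenoid lactone from Lindera plants, or the vehicle DMSO alone, each for 24 h, and mRNA was sequenced in 3 libraries per group. The compound was dissolved in DMSO, so both groups had met the solvent. Total counts ranged from 34282764 to 37758569 per library, and the libraries of a group differed from each other by more than counting noise (chi-square over its degrees of freedom from 5.09 to 11.5). The labels number the libraries of each group without saying whether they came from separate cultures, so the p-values measure the spread between these libraries, which may be technical.

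Type I and type III interferons bind receptors on the cell surface and activate the kinases JAK1 and TYK2, which phosphorylate STAT proteins. STAT2 and IRF9 are subunits of the resulting complex ISGF3, which binds the interferon-stimulated response element (ISRE) in promoters, while STAT dimers formed after interferon-gamma bind the gamma-activated site (GAS). The induced proteins sense foreign RNA, degrade RNA, block viral entry and budding, or adjust the signal itself, and many are also present at a low level in epithelial and cancer cells that have met no added interferon.

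The sequences just upstream of 7 members are shown first, because they carry the 2 motifs by which this gene group is usually recognised. Promoter windows of RefSeq (GRCh38.p14), from 250 bases before to 50 bases after each annotated start, were found for 33 of the 42 members. The ISRE was searched as GAAANNGAAA and its reverse complement TTTCNNTTTC, and the GAS as TTCNNNGAA, which is its own reverse complement. Each line gives the 160 bases that end at the last base before the start site, 5′ to 3′ on the strand of the gene, with matches to either motif in capitals. ISG15, IFIT1, IFIT5 and ISG20 were chosen as ISRE carriers with strong and weak responses, HERC5 as a carrier that did not pass the test, BST2 for overlapping ISRE and GAS matches, and IRF1 for a GAS without an ISRE, with their values known. A further match of IFIT5 crosses the start site and is not in capitals.
ISG15: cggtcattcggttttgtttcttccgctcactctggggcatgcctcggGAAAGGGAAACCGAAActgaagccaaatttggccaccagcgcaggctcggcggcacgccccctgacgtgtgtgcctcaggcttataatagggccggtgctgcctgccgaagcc
IFIT1: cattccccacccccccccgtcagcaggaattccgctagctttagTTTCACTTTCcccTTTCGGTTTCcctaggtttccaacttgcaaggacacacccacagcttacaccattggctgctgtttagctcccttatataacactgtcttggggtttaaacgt
IFIT5: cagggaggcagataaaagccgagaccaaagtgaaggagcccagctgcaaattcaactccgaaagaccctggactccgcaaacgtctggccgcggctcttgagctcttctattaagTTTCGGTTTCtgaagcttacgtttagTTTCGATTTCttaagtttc
ISG20: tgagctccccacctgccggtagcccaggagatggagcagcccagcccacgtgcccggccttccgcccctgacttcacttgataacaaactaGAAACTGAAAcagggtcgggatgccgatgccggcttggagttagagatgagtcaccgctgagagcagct
HERC5: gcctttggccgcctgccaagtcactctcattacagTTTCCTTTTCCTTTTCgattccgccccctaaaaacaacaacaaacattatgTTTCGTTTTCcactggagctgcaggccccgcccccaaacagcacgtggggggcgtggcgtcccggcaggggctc
BST2: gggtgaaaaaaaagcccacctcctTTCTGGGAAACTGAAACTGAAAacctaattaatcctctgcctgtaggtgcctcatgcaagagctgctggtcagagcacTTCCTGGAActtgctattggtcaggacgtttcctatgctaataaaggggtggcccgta
IRF1: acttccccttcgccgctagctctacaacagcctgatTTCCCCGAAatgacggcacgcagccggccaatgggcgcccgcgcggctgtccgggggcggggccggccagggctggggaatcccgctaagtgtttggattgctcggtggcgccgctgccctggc

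These stretches lie at chr1:1013337-1013496 on the plus strand for ISG15, chr10:89392463-89392622 on the plus strand for IFIT1, chr10:89414408-89414567 on the plus strand for IFIT5 and chr15:88638856-88639015 on the plus strand for ISG20. That of HERC5 lies at chr4:88456959-88457118 on the plus strand, that of BST2 at chr19:17405631-17405790 on the minus strand and that of IRF1 at chr5:132490774-132490933 on the minus strand. In ISG15 the matches GAAAGGGAAA and GAAACCGAAA overlap, the second beginning 107 bases before the start. In BST2 a GAS match, TTCTGGGAA, runs into a pair of overlapping ISRE matches, so the capitals form 1 run there, and a separate GAS match stands nearer to the start.

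An ISRE match was found in 21 of the 33 members with a window (63.6%), against 4.38% of the 27305 genes with a window in the RefSeq table. A GAS match was found in 12 of the 33 (36.4%), against 9.38% of all genes, and 26 of the 33 had at least 1 of the 2 motifs. The members with an ISRE match were BST2, DDX60, EPSTI1, HERC5, IFI27, IFI44, IFI44L, IFI6, IFIH1, IFIT1, IFIT3, IFIT5, IFITM1, IFITM3, ISG15, ISG20, MX1, OAS3, PLSCR1, RSAD2 and SAMD9. The members with no window in the table were USP18, IFIT2, OAS2, OASL, IFITM2, MX2, DHX58, IRF7 and TRIM22. A match of letters is a description of the sequence, and no binding was measured in these cells.

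Most of the members were higher with ILL. Differentially expressed genes (DEGs) were those with a Benjamini-Hochberg adjusted p under 0.05 from edgeR's quasi-likelihood test over 13066 tested genes together with a fold above 2 or below 0.5. The cutoffs follow the study's methods. All 42 members were tested, and all 42 were above the low-count filter in every control library. Of them 28 were DEGs higher with ILL, against 12.5% of all tested genes, and 0 were DEGs lower with ILL, against 11.4%. By adjusted p alone 39 were higher (36.2% of all tested genes) and 0 lower (36.9%). In 39 members every ILL library was above every control library in CPM (counts scaled to TMM-adjusted library size), which held for 37.5% of all tested genes. The same counts from DESeq2 were 28 DEGs higher and 0 lower.

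The median log2 fold change of the 42 members was 1.30, with a range from -0.06 for IFIT2 to 2.62 for ISG20, while the median of all tested genes was near 0 at -0.0012. Of all tested genes, 8.86% had a log2 fold change above the median of the members. The members together took between 0.389% and 0.435% of all counts in the control libraries and between 0.888% and 0.933% in the ILL libraries. In a bulk sample, more cells that express these genes and more of their RNA per cell cannot be told apart.

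**Figure D1:**
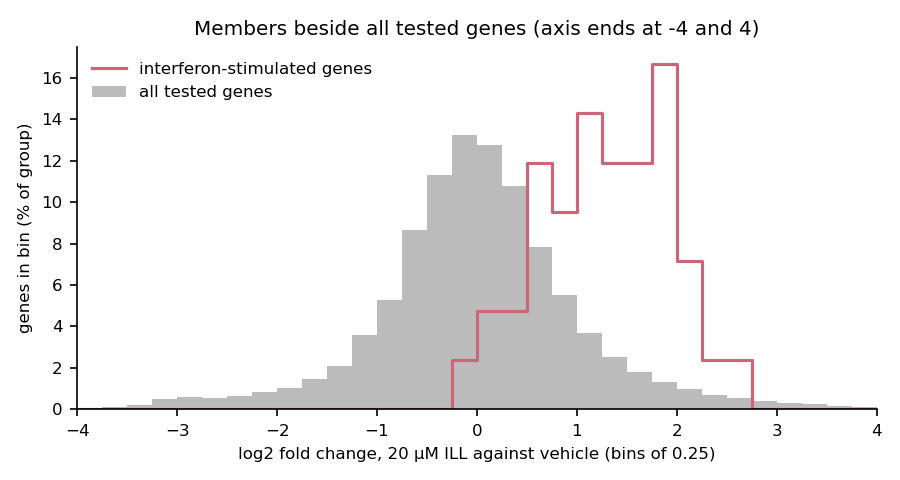
Distribution of the log2 fold change (ILL against vehicle, horizontal axis, bins of 0.25) as the percentage of each group of genes (vertical axis), with all 13066 tested genes as grey bars and the 42 interferon-stimulated genes as a red outline. The members lie between -0.06 and 2.62 with a median of 1.30, to the right of the peak of all genes near 0, and the axis is limited to values between -4 and 4.

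The levels in vehicle-treated cells differed widely between members. They are given as FPKM, the read count scaled by the authors to gene length and library total, so that genes can be compared. IFI27, a small hydrophobic membrane protein, was the most abundant member, at 1297, 1471 and 1240.5 FPKM in the control libraries and 2949, 3014 and 3059 FPKM with ILL. ISG15, a ubiquitin-like protein that is attached to other proteins or secreted, followed at 855, 926 and 789 FPKM in the control libraries and 2013, 2071 and 2031 FPKM with ILL. IFITM3, which restricts the entry of enveloped viruses from endosomes, was at 670.1, 698 and 619 FPKM in the control libraries and 1240.1, 1342 and 1320.4 FPKM with ILL. These were followed by IFITM1, IFI6 and BST2, and the ranges over control libraries of these 6 genes did not overlap with each other, nor did the ranges over ILL libraries, where the order was the same. At the other end, HERC5 was at 0.309, 0.246 and 0.272 FPKM in the control libraries and 0.202, 0.378 and 0.409 FPKM with ILL, ISG20 at a control mean of 1.12 FPKM and DHX58 at 1.30 FPKM. Over the 42 members, the control level on the log2 scale and the log2 fold change had a Pearson r of -0.19 and a Spearman rho of -0.31, given as a description because genes share the same 6 libraries.

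**Figure D2:**
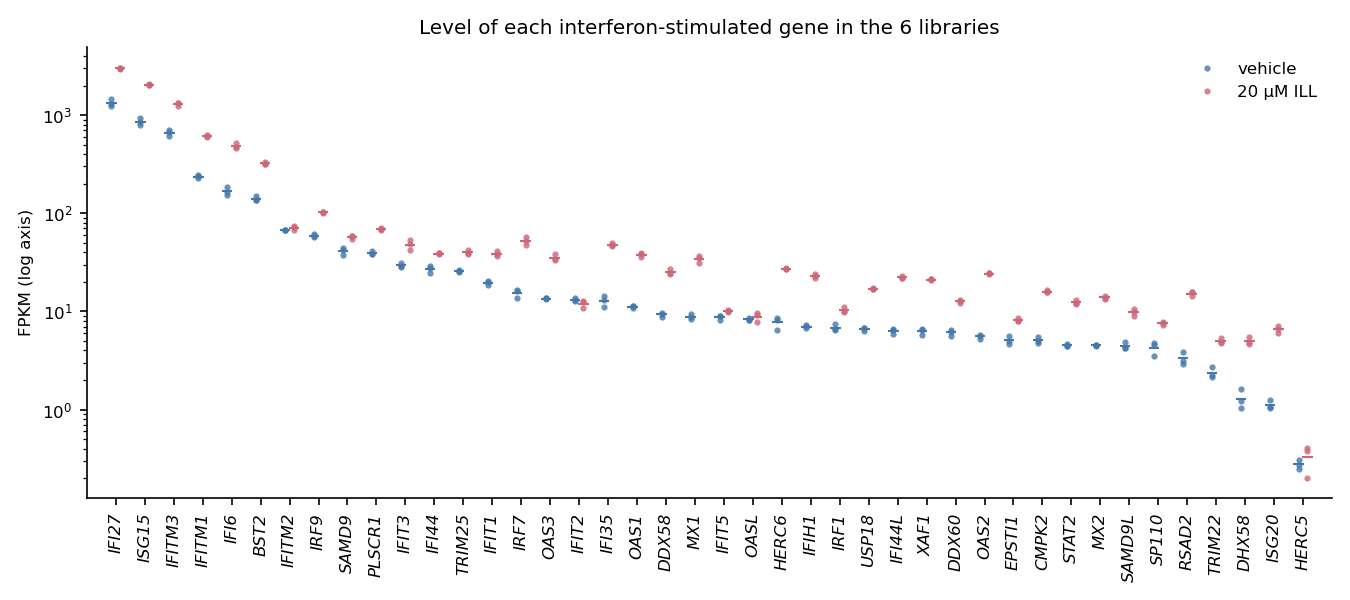
FPKM of each of the 42 interferon-stimulated genes (vertical log axis) in the 3 vehicle libraries (blue points) and the 3 libraries with 20 μM ILL (red points), ordered by control mean, with short bars for the means. On this scale every ILL point is above every vehicle point for 38 members, among them IFI27 at the left. The groups overlap for IFITM2, OASL and HERC5. For IFIT2 every ILL point is below every vehicle point, the highest at 12.68 against the lowest vehicle point at 12.73 FPKM.

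Among the 5 members of the ISG15 system, 3 were DEGs higher with ILL and 4 were higher by adjusted p. The ISG15 counts gave a log2 fold change of 1.32 ± 0.05 (SE, adjusted p = 5.73e-17), with the SE and adjusted p from edgeR, as for all single genes below. USP18, which removes ISG15 from its targets and dampens signaling at the type I receptor, was at 6.80, 6.83 and 6.39 FPKM in the control libraries and 16.9, 16.9 and 17.2 FPKM with ILL. Its log2 fold change was 1.42 ± 0.08 (SE, adjusted p = 4.55e-14), and the groups were far apart compared with the spread within each. HERC6, a HECT-domain relative of the ISG15 ligase HERC5, was at 8.27, 8.64 and 6.49 FPKM in the control libraries and 27.6, 26.8 and 27.3 FPKM with ILL, a log2 fold change of 1.87 ± 0.08 (SE, adjusted p = 8.09e-17). TRIM25, the ubiquitin ligase that modifies RIG-I, rose by less than the DEG cutoff, with a log2 fold change of 0.71 ± 0.05 (SE, adjusted p = 1.6e-11). HERC5, the main ligase for ISG15 in human cells, had 47, 34 and 38 reads in the control libraries and 29, 54 and 59 reads with ILL. The HERC5 groups overlapped and its log2 fold change was 0.33 ± 0.38 (SE, adjusted p = 0.454), so no difference was detectable at this depth.

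Of the 11 members grouped here as RNA-binding and RNA-degrading effectors, 7 were DEGs and 9 were higher by adjusted p. The nucleotide kinase CMPK2 was placed in this group although the name does not describe it. ISG20, an RNA exonuclease, had the largest log2 fold change of the 42 members, 2.62 ± 0.10 (SE, adjusted p = 2.68e-17), a fold change of 6.14. By limma on log2 of FPKM plus 1 it was at 1.832, below OAS2 at 1.951 and RSAD2 at 1.915. In that fit MX1 at 1.837 and IFI35 at 1.834 were also slightly above it. In the other alternatives ISG20 ranked first of these genes. ISG20 was at 1.06, 1.05 and 1.24 FPKM in the control libraries and 7.04, 5.97 and 6.63 FPKM with ILL, so the lowest ILL library was well above the highest control library. The oligoadenylate synthetases make the second messenger that activates RNase L, and OAS2 had the next largest change of this role. OAS2 was at 5.25, 5.76 and 5.65 FPKM in the control libraries and 23.8, 24.4 and 24.8 FPKM with ILL, and the log2 fold change was 2.20 ± 0.06 (SE, adjusted p = 6.98e-20). OAS1 was at 11.3, 11.5 and 10.8 FPKM in the control libraries and 35.8, 39.8 and 38.1 FPKM with ILL, a log2 fold change of 1.83 ± 0.06 (SE, adjusted p = 1.23e-18). OAS3, the largest of these enzymes, was at 13.2, 13.6 and 13.6 FPKM in the control libraries and 34.1, 38.4 and 33.6 FPKM with ILL and had a log2 fold change of 1.46 ± 0.06 (SE, adjusted p = 5.59e-17). OASL, a relative without the enzymatic activity, did not pass the test at 8.14, 8.64 and 8.09 FPKM in the control libraries and 7.82, 9.16 and 9.60 FPKM with ILL. Its log2 fold change was 0.17 ± 0.10 (SE, adjusted p = 0.128). In FPKM, ILL replicate 1 lay below all controls while the other 2 ILL libraries lay above them. In CPM, ILL replicate 1 was at 17.8, within the control range of 17.7 to 18.8. Without that library OASL was at 0.25 on the log2 scale with an adjusted p of 0.0282 from edgeR.

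CMPK2, a mitochondrial nucleotide kinase, was at 5.54, 4.95 and 4.73 FPKM in the control libraries and 15.6, 15.7 and 16.4 FPKM with ILL, and the log2 fold change was 1.72 ± 0.07 (SE, adjusted p = 1.65e-16). DDX60, a helicase that aids the sensing of viral RNA, was at 6.53, 6.21 and 5.61 FPKM in the control libraries and 13.1, 12.8 and 12.2 FPKM with ILL and had a log2 fold change of 1.12 ± 0.06 (SE, adjusted p = 2.54e-14). The IFIT proteins bind RNA with ends that mark it as foreign, and the 4 members of this family moved by different amounts. IFIT1 was at 20.1, 20.2 and 18.4 FPKM in the control libraries and 36.5, 41.01 and 38.8 FPKM with ILL, a log2 fold change of 1.06 ± 0.06 (SE, adjusted p = 4.05e-14) that was just over the fold cutoff, and it was under the cutoff with library size only and by limma on FPKM, down to 0.95. IFIT3 rose by 0.76 on the log2 scale (adjusted p = 5.43e-10) and IFIT5 by 0.29 (adjusted p = 0.000605), both under the cutoff for a DEG. IFIT2 was at 12.7, 12.9 and 13.6 FPKM in the control libraries and 10.9, 12.7 and 12.5 FPKM with ILL. In FPKM the highest ILL library of IFIT2, at 12.68, was just below the lowest control library, at 12.73, while in CPM the groups overlapped. The IFIT2 log2 fold change of -0.06 ± 0.07 (SE, adjusted p = 0.5) was within the spread between replicates.

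All 8 membrane and entry effectors were higher by adjusted p, and 6 were DEGs. RSAD2 (viperin), an enzyme of the endoplasmic reticulum that makes a chain-terminating nucleotide, was at 2.93, 3.85 and 3.16 FPKM in the control libraries and 15.6, 15.6 and 14.4 FPKM with ILL, and the log2 fold change was 2.27 ± 0.09 (SE, adjusted p = 2.92e-17). The GTPase MX1, which traps viral nucleoproteins in the cytoplasm, was at 8.78, 9.45 and 8.33 FPKM in the control libraries and 31.2, 36.4 and 35.1 FPKM with ILL, and its log2 fold change was 2.02 ± 0.07 (SE, adjusted p = 8.55e-19). MX2, its relative at the nuclear pore, was at 4.52, 4.46 and 4.59 FPKM in the control libraries and 13.8, 14.3 and 13.5 FPKM with ILL, and its log2 fold change was 1.69 ± 0.07 (SE, adjusted p = 2.1e-16). Both MX genes therefore had ILL libraries at more than 2 times the highest control. BST2 (tetherin), which holds budding virions at the cell surface, was at 137, 149 and 137 FPKM in the control libraries and 320.4, 335 and 318 FPKM with ILL, a log2 fold change of 1.27 ± 0.05 (SE, adjusted p = 1.21e-16). The IFITM proteins sit in the plasma membrane and in endosomes and hinder membrane fusion. IFITM1 was at 238, 244 and 229 FPKM in the control libraries and 601, 629.6 and 613 FPKM with ILL, with 1.44 ± 0.05 (SE, adjusted p = 3.47e-18) as its log2 fold change, and that of IFITM3, whose levels are given above, was 1.04 ± 0.05 (SE, adjusted p = 5.74e-15). IFITM3 fell just under the fold cutoff without control replicate 3, with library size only and by limma on FPKM, with a lowest log2 fold change of 0.97, so its DEG call rests on the setting. IFITM2 was at 68.0003, 67.5 and 67.3 FPKM in the control libraries and 67.4, 72.9 and 73.5 FPKM with ILL. Its log2 fold change of 0.15 ± 0.06 (SE, adjusted p = 0.0323) was small, the groups overlapped in FPKM, and the call was lost in 10 of 15 alternatives, for example with an adjusted p of 0.25 under library size alone. IFITM1 and IFITM2 share 351 exonic bases on the same strand in GENCODE release 29, and the rule for counting shared reads is not given in the sources used here, so their separate values are uncertain. PLSCR1, a phospholipid scramblase that limits viral entry, rose by 0.88 on the log2 scale (adjusted p = 3.05e-13), under the fold cutoff.

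The 3 RNA helicases that detect foreign RNA in the cytoplasm were all DEGs. IFIH1 (MDA5), which senses long double-stranded RNA, was at 7.24, 7.04 and 6.77 FPKM in the control libraries and 21.9, 24.2 and 23.1 FPKM with ILL, a log2 fold change of 1.79 ± 0.07 (SE, adjusted p = 1.59e-17). DDX58, the symbol used in the table for RIG-I, which senses short RNA with a triphosphate end, was at 9.68, 9.50 and 8.77 FPKM in the control libraries and 24.01, 24.5 and 27.2 FPKM with ILL, and its log2 fold change was 1.51 ± 0.06 (SE, adjusted p = 1.68e-16). DHX58 (LGP2), which lacks the signaling domain and tunes the other two, was at 1.21, 1.04 and 1.63 FPKM in the control libraries and 4.86, 5.53 and 4.65 FPKM with ILL. Its log2 fold change was 2.02 ± 0.16 (SE, adjusted p = 3.4e-11), with the largest SE of the DEG members and no overlap between the groups.

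All 5 transcription factors were higher by adjusted p, and IRF7 and STAT2 were DEGs. IRF7, which drives the transcription of interferon genes after sensing, was at 16.04, 16.4 and 13.6 FPKM in the control libraries and 52.4, 57.2 and 47.9 FPKM with ILL, a log2 fold change of 1.84 ± 0.08 (SE, adjusted p = 9.54e-17). STAT2, the subunit of ISGF3 with the activation domain, was at 4.62, 4.47 and 4.49 FPKM in the control libraries and 12.1, 13.2 and 11.96 FPKM with ILL, a log2 fold change of 1.53 ± 0.07 (SE, adjusted p = 1.02e-15). IRF9, the DNA-binding subunit of ISGF3, was at 61.1, 57.1 and 59.03 FPKM in the control libraries and 100.3, 103 and 104 FPKM with ILL, and its log2 fold change of 0.86 ± 0.05 (SE, adjusted p = 2.67e-13) was under the cutoff although its FPKM was higher than that of STAT2 in each library. IRF1, a factor with a GAS in its promoter that is induced early by interferon-gamma, was at 6.43, 7.39 and 6.63 FPKM in the control libraries and 10.1, 9.80 and 11.1 FPKM with ILL. Its log2 fold change was 0.67 ± 0.08 (SE, adjusted p = 4.68e-08), and the groups did not overlap. SP110, a nuclear body protein, had a log2 fold change of 0.89 (adjusted p = 1.35e-09), and 170 of its exonic bases overlap SP140 on the opposite strand.

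**Figure D3:**
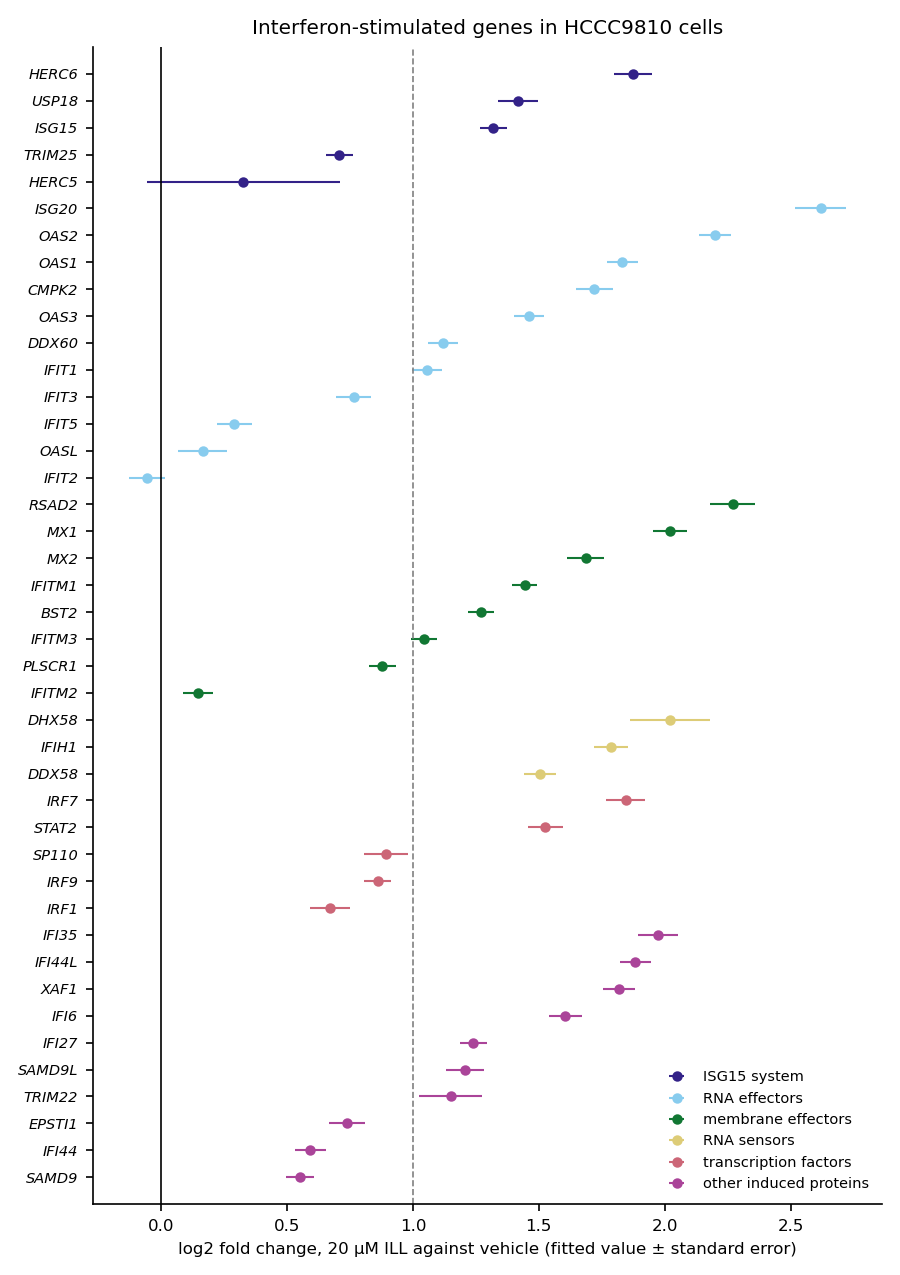
Fitted log2 fold change with its standard error (horizontal axis) for each of the 42 interferon-stimulated genes, coloured by role, from 3 ILL against 3 vehicle libraries. The dashed line marks the fold cutoff, which 28 members pass, from ISG20 at 2.62 to IFITM3 at 1.04, and HERC5, OASL and IFIT2 are the members that did not pass the test.

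All 10 of the remaining interferon-induced proteins were higher by adjusted p, and 7 were DEGs. IFI35, a cytosolic protein that modulates innate signaling, was at 14.3, 11.1 and 12.98 FPKM in the control libraries and 49.5, 48.1 and 46.3 FPKM with ILL, a log2 fold change of 1.97 ± 0.08 (SE, adjusted p = 6.36e-17). IFI44L was at 6.65, 6.48 and 5.87 FPKM in the control libraries and 22.1, 22.7 and 21.97 FPKM with ILL, and the log2 fold change was 1.88 ± 0.06 (SE, adjusted p = 8.71e-19). Its neighbour IFI44, which lies beside it on chromosome 1, rose by 0.59 on the log2 scale (adjusted p = 3.51e-09), under the cutoff. XAF1, an antagonist of the apoptosis inhibitor XIAP, was at 6.65, 6.50 and 5.73 FPKM in the control libraries and 20.8, 21.3 and 21.3 FPKM with ILL and had a log2 fold change of 1.82 ± 0.07 (SE, adjusted p = 5.91e-18). IFI6, a small membrane protein that counters apoptosis, was at 164, 186 and 152 FPKM in the control libraries and 469, 520.0 and 468 FPKM with ILL, a log2 fold change of 1.61 ± 0.06 (SE, adjusted p = 4.79e-17). The log2 fold change of IFI27 was 1.24 ± 0.05 (SE, adjusted p = 2.66e-16), so the most abundant member was also a DEG. SAMD9L, a growth-restricting antiviral protein, was at 4.84, 4.27 and 4.24 FPKM in the control libraries and 8.97, 10.6 and 9.83 FPKM with ILL, and the log2 fold change was 1.21 ± 0.07 (SE, adjusted p = 2.85e-13). Its neighbour SAMD9 rose by 0.55 (adjusted p = 2.61e-09) from a control mean of 41.2 FPKM, against 4.45 FPKM for SAMD9L. TRIM22, an antiviral ubiquitin ligase, was at 2.71, 2.14 and 2.23 FPKM in the control libraries and 4.76, 4.93 and 5.33 FPKM with ILL, a log2 fold change of 1.15 ± 0.13 (SE, adjusted p = 1.15e-08), and 642 of its exonic bases are shared with OR56B1 on the same strand. Exons of TRIM25 share 132 bases with C17orf67 on the same strand, and CMPK2 and RSAD2 (14 bases) and IFIT2 and LIPA (65 bases) overlap on opposite strands. EPSTI1, a gene first found in tumour cells cultured with stroma, rose by 0.74 on the log2 scale (adjusted p = 1.44e-09).

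Related genes, some of them side by side in the genome, had different fold changes. The members form 8 groups of neighbours on GRCh38.p14 with gaps of at most 200 kb, such as the 4 IFIT genes on chromosome 10 from 89302046 to 89420997, the 3 IFITM genes on chromosome 11 from 307816 to 320860, and OAS1, OAS3 and OAS2 on chromosome 12 from 112906962 to 113011723. Ratios of read counts within a library are free of the scaling between libraries. They were computed for 4 pairs chosen after their values were seen, so they are descriptions without a test. IFIT1 had 2.10, 2.08 and 1.79 reads per IFIT2 read in the control libraries and 4.46, 4.30 and 4.14 in the ILL libraries. OAS2 had 1.44, 1.49 and 1.56 reads per OASL read in the control libraries and 6.80, 5.94 and 5.77 in the ILL libraries, and these genes lie on the same chromosome but not side by side. For IFITM1 and IFITM2 the ratio was 2.33, 2.40 and 2.26 in the control libraries and 5.92, 5.73 and 5.54 in the ILL libraries. For HERC6 and HERC5, neighbours on chromosome 4, the ratio was 27.8, 36.4 and 24.8 in the control libraries and 142, 73.7 and 69.4 in the ILL libraries, where HERC5 had fewer than 60 reads in each library. In all 4 pairs the ILL libraries were above the control libraries, by 1.11, 2.04, 1.30 and 1.62 on the log2 scale in the order given.

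**Figure D4:**
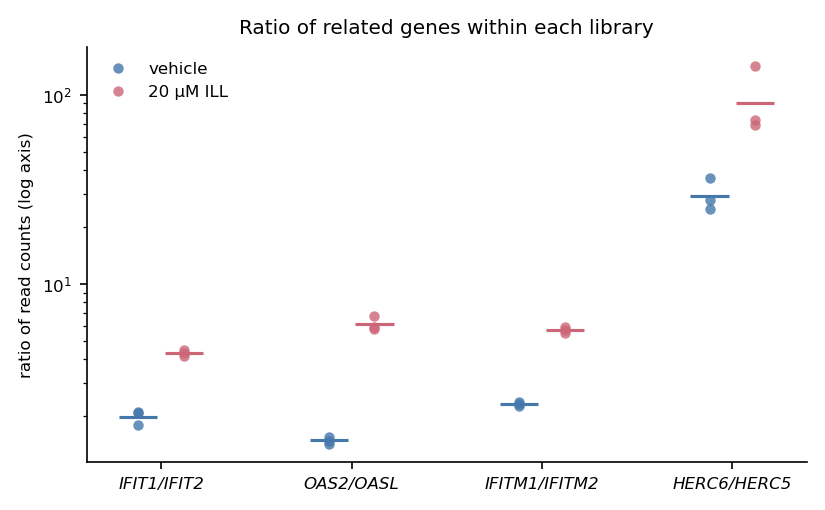
Ratio of the read counts of 2 related genes within each library (vertical log axis) for 4 pairs, with vehicle libraries in blue, ILL libraries in red and the geometric mean of each group as a bar. The ILL points lie above the vehicle points in each pair, as for IFIT1 over IFIT2 at 4.14 to 4.46 against 1.79 to 2.10.

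Members with and without a promoter motif covered overlapping ranges of change. The 21 members with an ISRE match, shown above for ISG15, IFIT1, IFIT5, ISG20, HERC5 and BST2, had a median of 1.24 on the log2 scale with a range of 0.29 to 2.62, and 14 were DEGs. The 12 members with a window and no ISRE match had a median of 1.52 with a range of 0.67 to 1.97, and 8 were DEGs. ISG20, with 1 match 69 bases before its start, and IFIT5, with 3 in its window, stand at the ends of the first range. The 12 members with a GAS match had a median of 1.18, and the 21 without had a median of 1.46. No test was made of these differences.

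Few interferon genes were detected. Of 21 ligand genes, 16 had 0 counts in every library, among them IFNG and all the interferon-alpha genes listed. A count of 0 allows any level up to a limit of 3 counts. As a share of the raw library total, that limit was 0.0795 to 0.0875 CPM, depending on the library. IFNB1 had 2, 4 and 0 reads in the control libraries and 15, 0 and 0 reads with ILL, with no count in 2 of the 3 ILL libraries. IFNL1, a type III interferon, had 43, 6 and 2 reads in the control libraries and 32, 62 and 42 reads with ILL. The groups of IFNL1 overlapped through control replicate 1, and its log2 fold change was 1.52 ± 0.61 (SE, adjusted p = 0.029), and it rests on single libraries. Without control replicate 1 it was 3.48 on the log2 scale (edgeR adjusted p = 6.81e-05), while the call was lost without control replicate 2, control replicate 3 or ILL replicate 2 (adjusted p between 0.126 and 0.131, lowest value 1.005). IFNE, an epithelial interferon, had 90, 124 and 84 reads in the control libraries and 148, 153 and 163 reads with ILL, a log2 fold change of 0.70 ± 0.23 (SE, adjusted p = 0.00794). IFNL1 and IFNE were the 2 ligands tested, and the ligands and the receptor and pathway genes named with them, other than IL10RB and IFNLR1, were picked after their values were seen.

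Of the 11 genes for interferon receptors, JAK kinases and STATs, 9 were higher by adjusted p, against 36.2% of all tested genes, and 2 were DEGs, against 12.5%. Their median log2 fold change was 0.78. IFNLR1 and IL10RB, the chains of the type III receptor, were those DEGs. IFNLR1 was at 0.978, 0.762 and 0.798 FPKM in the control libraries and 1.90, 1.75 and 1.87 FPKM with ILL, a log2 fold change of 1.19 ± 0.15 (SE, adjusted p = 1.61e-07). IL10RB, which also serves the interleukin-10 receptor, was at 12.8, 11.2 and 12.8 FPKM in the control libraries and 27.7, 24.8 and 27.7 FPKM with ILL, and the log2 fold change was 1.19 ± 0.08 (SE, adjusted p = 4.46e-13). IFNAR1, a chain of the type I receptor, rose by 0.74 on the log2 scale (adjusted p = 1.66e-11), while IFNAR2 had a log2 fold change of 0.18 ± 0.10 (SE, adjusted p = 0.0874) and TYK2 of 0.05 ± 0.08 (SE, adjusted p = 0.612).

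Of 20 genes for nucleic acid sensing and interferon induction, 16 were tested, 13 were higher and 2 lower by adjusted p, and 6 and 1 of these were DEGs. Among all tested genes 36.2% were higher and 36.9% lower by adjusted p, and 12.5% and 11.4% were DEGs. TLR3, the endosomal receptor for double-stranded RNA, was at 0.423, 0.325 and 0.335 FPKM in the control libraries and 2.18, 1.86 and 1.80 FPKM with ILL, a log2 fold change of 2.49 ± 0.16 (SE, adjusted p = 1.01e-12). TICAM1, its adaptor, had a log2 fold change of 1.92 ± 0.08 (SE, adjusted p = 1.62e-16). ZBP1, a sensor of nucleic acids in the Z conformation, was below 1 FPKM in each library and had a log2 fold change of 2.64 ± 0.45 (SE, adjusted p = 1.19e-05). The other DEGs of this list that were higher were STING1, at 1.90, IRF5, at 1.32, and MYD88, at 1.19 on the log2 scale, and these 3 fall outside the rule for named genes. CGAS, the DNA sensor upstream of STING1, was at 10.7, 10.8 and 9.24 FPKM in the control libraries and 4.09, 3.93 and 4.17 FPKM with ILL, and it fell with a log2 fold change of -1.26 ± 0.09 (SE, adjusted p = 3.95e-12). IRF3, the constitutive factor that starts interferon transcription, was the other gene that fell, with a log2 fold change of -0.33 ± 0.06 (SE, adjusted p = 1.35e-05), named after its value was seen.

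Of 16 negative regulators of interferon signaling, 6 were higher and 8 lower by adjusted p, with 2 DEGs in each direction and a median log2 fold change of -0.08. The shares over all tested genes, higher and lower, were 12.5% and 11.4% for DEGs and 36.2% and 36.9% by adjusted p, so the DEG counts of this list are near the background. RNF125, a ubiquitin ligase acting on RIG-I, had a log2 fold change of 2.04 ± 0.28 (SE, adjusted p = 4.06e-07) at FPKM values below 1, and TRIM38 one of 1.12 ± 0.08 (SE, adjusted p = 3.02e-12). OTUD3, a deubiquitinase, fell with a log2 fold change of -1.09 ± 0.16 (SE, adjusted p = 1.67e-06). CISH, a cytokine signaling inhibitor named after its value was seen, had one of -1.67 ± 0.48 (SE, adjusted p = 0.0035). Its level was low, with 60, 30 and 48 reads in the control libraries and 13, 7 and 21 reads with ILL. The classical feedback inhibitors SOCS1 and SOCS3, also named after their values were seen, fell by less than the cutoff, with log2 fold changes of -0.78 ± 0.19 (SE, adjusted p = 0.000967) and -0.65 ± 0.09 (SE, adjusted p = 6.38e-07). USP18, an inhibitor of the same pathway counted among the 42 members, had risen as given above.

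Of 18 genes known to respond to interferon-gamma, 16 were tested, 13 were higher and 1 lower by adjusted p, and 9 and 1 were DEGs. The background over all tested genes was 36.2% higher and 36.9% lower by adjusted p, and 12.5% and 11.4% for DEGs. GBP2, a guanylate-binding GTPase, was at 0.602, 0.285 and 0.430 FPKM in the control libraries and 12.5, 14.5 and 13.9 FPKM with ILL, and its log2 fold change of 5.01 ± 0.14 (SE, adjusted p = 3.02e-20) exceeded that of any of the 42 members. GBP1 was at 3.76, 3.21 and 3.86 FPKM in the control libraries and 44.6, 51.3 and 50.002 FPKM with ILL, a log2 fold change of 3.82 ± 0.08 (SE, adjusted p = 3.16e-22). NLRC5, the transactivator of the major histocompatibility complex class I genes, had a log2 fold change of 2.63 ± 0.08 (SE, adjusted p = 2.46e-19). IRF8, a factor mostly of blood cells, fell with a log2 fold change of -2.23 ± 0.43 (SE, adjusted p = 6.24e-05) from control values below 1 FPKM, and was at -3.04 without ILL replicate 2. Of 39 further interferon-stimulated genes, a list that shares 5 genes with those above, GBP1 among them, 38 were tested, 33 were higher and 0 lower by adjusted p, and 19 were DEGs higher. The same background shares apply to this list. LAMP3, a lysosomal membrane protein, had a log2 fold change of 3.45 ± 0.13 (SE, adjusted p = 1.41e-17), and TYMP, thymidine phosphorylase, one of 2.23 ± 0.06 (SE, adjusted p = 3.36e-20) at 53.8, 56.3 and 49.8 FPKM in the control libraries and 228, 258 and 228 FPKM with ILL. The median log2 fold change was 1.33 for the first of these lists and 1.04 for the second.

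**Figure D5:**
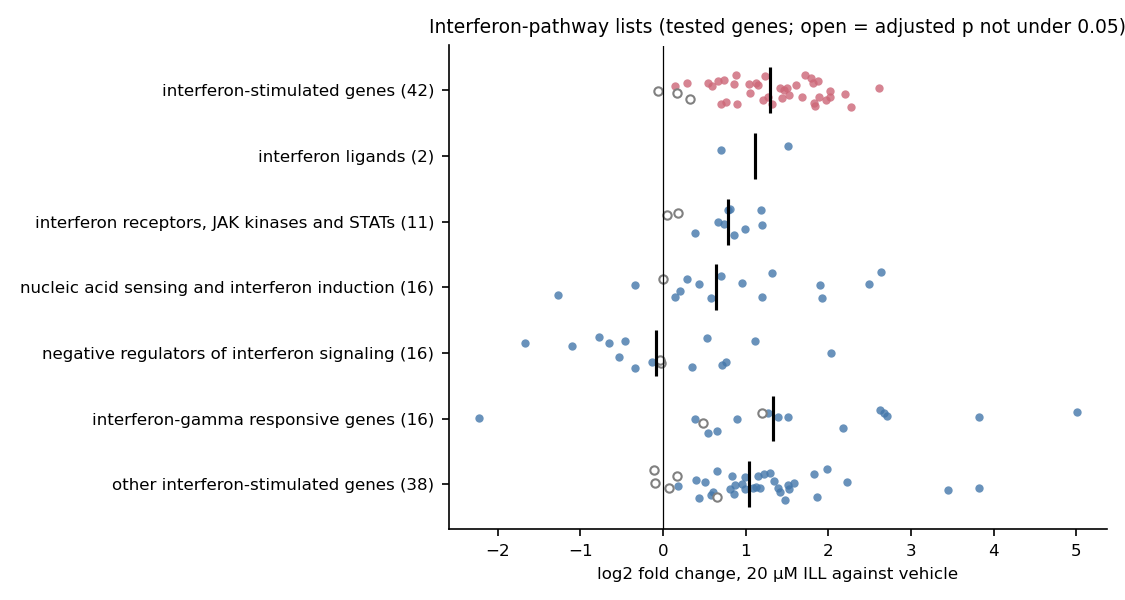
Log2 fold change (ILL against vehicle, horizontal axis) of each tested gene in the 42 members (red) and in 6 further lists of the interferon pathway (blue), with the number tested in parentheses, open points for genes that did not pass the test and a black bar at the median. The medians lie at 1.30 for the members, 0.78 for receptors, kinases and STATs and -0.08 for negative regulators.

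The labelled cell type was checked with markers. The biliary epithelial genes KRT7, KRT19, KRT8, KRT18, EPCAM, CDH1, SOX9 and ANXA4 passed the low-count filter, while CFTR had 0 counts in each library. Summed levels of the list were between 9104 and 9353 CPM in control and between 9619 and 10200 CPM in ILL libraries. These sums hide opposite changes of single markers. Of the 8 tested, 4 were higher and 4 lower by adjusted p, against 36.2% and 36.9% of all tested genes. CDH1, the 1 DEG among them, rose most, by 2.07 on the log2 scale, and KRT18 fell most, at -0.82. Of 8 leukocyte markers 2 were tested, and their summed level was between 36.5 and 41.8 CPM in control and between 112 and 117 CPM in ILL libraries. That sum came almost entirely from CD68, a lysosomal protein found in many cells, with 1396, 1285 and 1445 reads in the control libraries and 3882, 4029 and 3898 reads with ILL, whereas PTPRC, which defines leukocytes, had 0, 0 and 1 reads in the control libraries and 9, 0 and 1 reads with ILL. The 3 markers of plasmacytoid dendritic cells, which are strong producers of interferon, had 0 counts in every library. Summed levels in control and ILL libraries were 12.1 to 14.1 and 16.8 to 18.4 CPM for fibroblasts, 1.004 to 1.65 and 1.69 to 1.91 CPM for endothelium, and 7.20 to 10.2 and 8.77 to 21.4 CPM for hepatocytes. Of the endothelial markers, VWF was a DEG at 2.05 on the log2 scale, from 2, 13 and 0 reads in control to 25, 23 and 13 with ILL. PECAM1, at -0.89, and CDH5, at 0.29, did not pass the test. The part of these differences in the values of the 42 members was not tested.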

How the data were processed

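RNA of HCCC9810 cells was sequenced by the study's provider after TRIzol extraction and Illumina mRNA library preparation. The files deposited by the authors hold raw read counts for each gene symbol, without normalization, and FPKM values that are those counts scaled by gene length and library total, with 1 column per library and no pooling. The submitters' processing notes name GRCh38 and DESeq2 without a version, while the aligner, counting program, strand setting and annotation are not given in the sources used here. Groups and replicate numbers came from the sample labels.

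Counts were filtered with filterByExpr, which left 13066 of 19470 genes, scaled by TMM and tested with edgeR's quasi-likelihood test (edgeR 4.0.16, R 4.3.3) with Benjamini-Hochberg adjustment over all tested genes. Standard errors are the log2 fold change divided by the square root of F, and the biological coefficient of variation was 0.0717. At totals of 34282764 to 37758569 counts, the spread between libraries rather than counting set the precision of most members. The floor of 3 counts covers counting error only.

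The 42 members and all gene lists were chosen with earlier results of these data known, so counts over lists are descriptions. Values in every library were given for members called DEG, the 5 most abundant members, and IRF1, IRF7, IRF9 and STAT2. Of each further list, at most 3 DEGs at each end were named where the mean reached 1 CPM and the groups did not overlap, and other names are marked as chosen after their values were seen. Alternatives were scaling by library size alone or by DESeq2's size factors, a fit without the filter, a filter of 10 counts in each library, DESeq2's own test (1.42.0), a block for the replicate number, omission of single libraries, and limma (3.58.1) on log2 of FPKM plus 1 or 0.1 with a mean of at least 1 FPKM or no filter. Promoters and positions are from RefSeq (GRCh38.p14) and exon overlaps from GENCODE release 29. DDX58 was matched to the RefSeq symbol RIGI. Single values of a few listed genes are left out here.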

Additional observations from a re-analysis of the deposited data

How the results depend on the processing

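Over 15 alternatives the number of members called DEG and higher with ILL stayed between 23 and 28, the number higher by adjusted p between 38 and 40, and the number lower at 0. Of the 28 DEG members, 26 were called with library size only, 23 by limma on FPKM plus 1 with and without the filter, 26 by limma on FPKM plus 0.1, 27 without control replicate 3, and 28 in each other alternative. The members that fell under the fold cutoff were IFITM3 and IFIT1 with library size only and in all limma fits, DDX60, SAMD9L and TRIM22 by limma on FPKM plus 1, and IFITM3 without control replicate 3. The median log2 fold change was 1.30 and moved to 1.23 with library size only, 1.23 and 1.21 by limma on FPKM plus 1 with and without the filter and 1.25 with FPKM plus 0.1, and leaving out 1 library gave 1.26 to 1.34. Library size only shifted the median of all genes to -0.07 and limma with the filter to -0.09 on FPKM plus 1 and -0.10 on FPKM plus 0.1, so those values are to be read relative to that shift.

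By direction and adjusted p alone, 39 members kept their call in every alternative that gave them a value. The exceptions were IFITM2, whose call was lost in 10 alternatives (adjusted p up to 0.25), OASL, which passed without ILL replicate 1, and IFIT2, whose value ranged from -0.10 to 0.015 with 1 library left out and was above 0 without ILL replicate 1, in no case past the threshold. The TYK2 log2 fold change, which never passed, was at -0.024 with library size only, -0.023 by limma on FPKM plus 1 with or without the filter, -0.025 with FPKM plus 0.1, and between -0.031 and 0.11 with 1 library left out. The IFNL1 call was also lost by limma on FPKM plus 1 without the filter. The DEG counts of the small lists moved from 1 to 0 for ligands, from 2 to between 1 and 3 for receptors and kinases, and from 2 to 0 in each direction for negative regulators. The lower DEG count for interferon-gamma responsive genes moved from 1 to 0 in 4 alternatives. A pseudocount of 1 FPKM lowered the log2 fold changes of low genes, such as DHX58 from 2.02 to 1.40, TLR3 from 2.49 to 1.11, GBP2 from 5.01 to 3.35 and LAMP3 from 3.45 to 2.14. The 4 ratios of related genes, left-out values of which were added after seeing the data, kept their direction, and HERC6 over HERC5 was lowest without ILL replicate 1, at 1.29 on the log2 scale.

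With the replicate block the DEG members numbered 28 and the median was 1.30. The correlations of deviations between libraries of the same number were 0.00668, -0.02 and -0.0605, so the libraries share a number and the replicate block tests no pairing. HERC5 was below the FPKM filter and had no value in the filtered limma fits. Leaving out a library keeps 2 in its group. Genes near 0 reads, the ligands above all, limit what this depth can show.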
